A study of Homo sapiens with 2 samples.

Results

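The amino acid transporters described here are 10 genes, SLC7A5, SLC3A2, SLC7A1, SLC7A6, SLC1A4, SLC1A5, SLC38A1, SLC38A2, SLC43A1 and SLC6A9, taken by name from a table of 61806 Ensembl genes. Their mRNA was measured in HEL cells, a human erythroleukemia cell line labelled WT. One culture condition received the vehicle, 0.5% DMSO, and the other received L1, a diindolylmethane derivative, at 1 µM, both for 24 h. There was 1 library per condition, so how far cultures differ among themselves is unknown and the comparison carries no statistical test. Of the 10 genes, 9 had at least 10 reads in a library and a deposited FPKM value (read fragments per kilobase of transcript, scaled for library size), while SLC38A1 had 0 counts in both libraries. Intervals given below are 95% intervals that cover counting error only. In bulk RNA, a lower value cannot be separated into fewer cells of a type and less RNA per cell.

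Amino acids cross the plasma membrane through solute carrier (SLC) proteins. SLC7A5 (LAT1) carries large neutral amino acids such as leucine and SLC7A6 carries cationic and neutral ones, and both reach the cell surface only when bound to SLC3A2 (CD98, 4F2hc). SLC7A1 (CAT1) takes up arginine and lysine, SLC1A5 (ASCT2) exchanges glutamine and other neutral amino acids, and SLC1A4 (ASCT1) prefers alanine, serine and cysteine. SLC38A1 and SLC38A2 (SNAT1 and SNAT2) are sodium-coupled carriers of glutamine and other small neutral amino acids. SLC43A1 (LAT3) carries leucine and related amino acids, and SLC6A9 (GLYT1) takes up glycine, which erythroid cells use to make heme. Several of these genes are known targets of ATF4, the transcription factor of the integrated stress response, which binds DNA elements with a TGATGNAA core. MYC, which binds CACGTG E-boxes, is also known to act on SLC7A5 and SLC1A5.

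The promoter sequences of the members are shown because these elements link the transporters to the amino acid response. The RefSeq promoter table (GRCh38.p14) held windows from 250 bases before to 50 bases after a transcription start, 17 windows for the 10 genes. On either strand, 5 of the 10 genes had a TGATGNAA match in at least 1 window, compared with 4.46% of the 27305 genes in the table. A gene with more windows has more places for a match. By window, 5 of the 17 held one, compared with 3.62% of all 35116 windows. The matches are printed in the direction of the gene with the motif in capitals, and TTGCATCA and TTACATCA are the core read on the other strand.
SLC7A1, chr13:29595665-29595690, minus strand: gcgcactgcTGATGAAAcctggcgcc
SLC3A2, chr11:62881727-62881748, plus strand: caggactccTTACATCAgctcc
SLC1A4, chr2:64989383-64989408, plus strand: ggctcccgtTTGCATCAtctccagcc
SLC1A5, chr19:46784895-46784920, minus strand: ggaagtggcTGATGCAAgctgtccag
SLC38A1, chr12:46266504-46266529, minus strand: agacccgaaTGATGAAAagggatcag
Counted from the transcription start of its window, the match lay at 8 in SLC7A1, 38 in SLC3A2, -7 in SLC1A4, -4 in SLC38A1 and -97 in SLC1A5. SLC7A1 has 1 window, while the matches of the other 4 lay in the window of a start downstream of another RefSeq start of the same gene. A match describes the letters only and does not show binding.

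A CACGTG E-box was found in windows of 3 of the 10 genes, compared with 8.77% of all genes in the promoter table. By window, 3 of the 17 held one, compared with 7.26% of all windows. The E-boxes are shown because MYC mRNA, described below, was higher in the L1 library.
SLC7A5, chr16:87869623-87869646, minus strand: cggacgacgCACGTGctccgagct
SLC43A1, chr11:57515800-57515823, minus strand: cgggcgagtCACGTGcgcgtgaaa
SLC1A5, chr19:46787329-46787352, minus strand: gggagtggtCACGTGgacaggacg
Counted in the same way, the E-box lay at -130 in SLC7A5, -112 in SLC43A1 and -50 in SLC1A5, the last in a window downstream of another start of that gene. The ER stress element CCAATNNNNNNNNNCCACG, bound by ATF6 with NF-Y, had no match in the 17 windows, and 0.0916% of all genes held one.

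The libraries held 32556872 counts for DMSO and 27135647 for L1. Of 14 erythroid and megakaryocytic markers, including HBG1, GATA1 and ITGA2B, all had at least 10 counts in both libraries, and their summed level was 4439.6 CPM (counts per 1e6 counts of the library) in DMSO and 4903 in L1. Of 10 markers of lymphoid, epithelial and liver cells, 8 were at 0 in both libraries, and the highest was CD7 with 60 counts in DMSO and 42 in L1. Counts were scaled by TMM, which gave DMSO an effective library 1.16 times that of L1. A log2 ratio is that of L1 over DMSO in scaled counts. Of the 14 erythroid and megakaryocytic markers, 8 had a log2 ratio above 0 and 6 below, so their sum hides markers that were lower. Over all genes with at least 10 counts in a library, 49.6% were above 0. The 14 markers ran from -1.25 for TFRC to 1.78 for HBG1.

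The transporters differed widely in level. SLC1A5 had the highest FPKM in the DMSO library, 146 (95% Poisson interval 144 to 148), and 93.6 in the L1 library (91.6 to 95.6). SLC7A5 had an FPKM of 81.7 in DMSO (80.3 to 83.1) and 94.2 in L1 (92.5 to 95.9). SLC1A5 was thus first in DMSO by a margin well beyond counting error, whereas in L1 the intervals of SLC1A5 and SLC7A5 overlapped. SLC38A2 was at 72.2 FPKM in DMSO and 67.6 in L1, and SLC7A1 was at 52.1 in DMSO and 37.2 in L1. These 4 genes made up 88.1% of the summed FPKM of the members in DMSO and 85.5% in L1. The share of SLC1A5 in that sum was 36.5% in DMSO and 27.4% in L1, and the share of SLC7A5 was 20.4% and 27.5%.

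The other 5 measured members were lower. SLC3A2 had an FPKM of 17.2 in DMSO and 20.4 in L1, and SLC43A1 had 11.9 in DMSO and 10.0 in L1. SLC6A9 and SLC1A4 could not be ordered in DMSO, with 7.10 FPKM (6.70 to 7.51) and 7.09 FPKM (6.75 to 7.45). In L1 SLC6A9 was at 7.58 FPKM (7.14 to 8.04) and SLC1A4 at 6.67 FPKM (6.30 to 7.04), and these intervals did not overlap. SLC7A6 was the lowest of the 9, with 4.36 FPKM in DMSO and 4.80 in L1. The summed FPKM of the members was 399.6 in DMSO and 342 in L1, and their summed counts were 64122 and 48663, or 1969.5 and 1793 CPM.

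**Figure D1:**
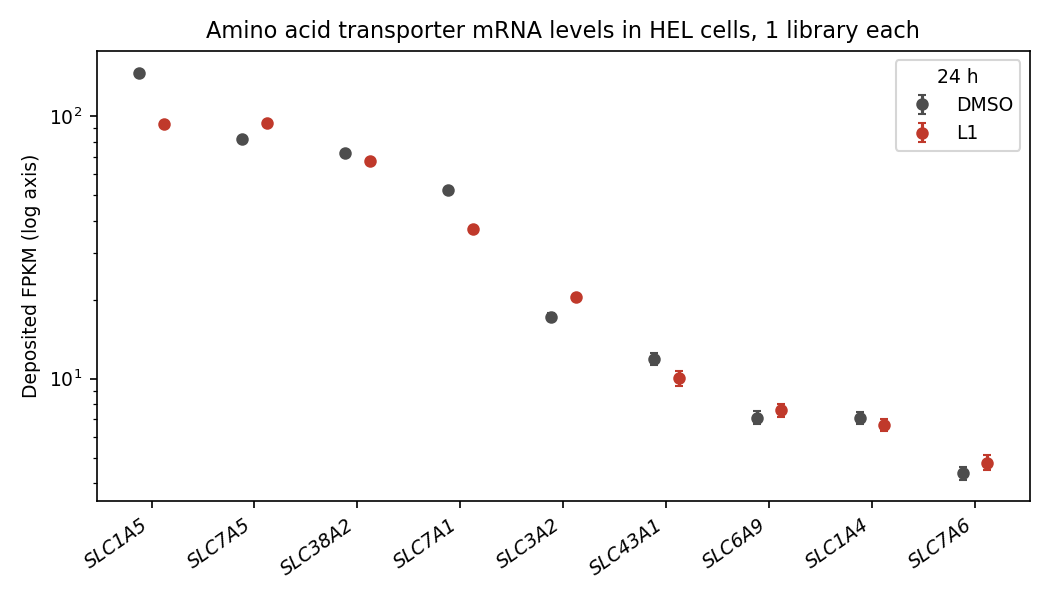
Deposited FPKM of the 9 measured transporters on a log axis in the DMSO library (grey) and the L1 library (red), with 95% Poisson intervals that cover counting error only. SLC1A5 lies at 146 in DMSO and 93.6 in L1, beside SLC7A5 at 94.2 in L1, while SLC7A6 is lowest in both.

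None of the 9 measured transporters was 2-fold higher or lower in the L1 library, where 12.0% of the 18123 genes with at least 10 counts in a library were past 2-fold in either direction. Their log2 ratios ran from -0.64 to 0.25, with 4 above 0 and 5 below, and a median of -0.09, beside a median of -0.0040 over all 18123 genes. Among the 6479 genes with at least 1000 counts in the higher library, the depth that the 9 transporters reached, 4.12% were past 2-fold (2.04% higher and 2.08% lower) and the median was -0.03. The interval excluded 0 for 7 of the 9 transporters, 3 above 0 and 4 below, where it did so for 55.4% of the 18123 genes (26.8% above 0 and 28.6% below) and for 75.8% of the 6479 (34.1% above and 41.8% below), so the count says little about these transporters in particular. It also moved with the scaling, to 4 above and 4 below with total counts or upper quartile scaling, where SLC6A9 was added, and to 2 above and 5 below with DESeq2 size factors, where SLC7A6 was lost and SLC1A4 added. SLC1A5 alone was at least 1.5-fold lower, a call lost at a log2 ratio of -0.58 when counts overlapping it on the opposite strand were summed in, as were 11.4% of the 18123 genes and 6.22% of the 6479. None was at least 1.5-fold higher, as 13.8% and 5.19% were, and past 1.5-fold in either direction lay 25.2% and 11.4%.

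SLC1A5, the glutamine exchanger, had the lowest ratio. Its gene lies on chromosome 19 from 46774883 to 46788594 (GRCh38, GENCODE release 29). It gave 15465 counts with DMSO and 8549 with L1, and its log2 ratio was -0.64 (95% interval -0.68 to -0.60) or 0.641-fold. Of the 6479 genes at this depth, 5.14% had a lower ratio. Exons of AC008622.2, on the opposite strand, overlap SLC1A5 over 780 bases, and that gene had 475 counts in DMSO and 413 in L1. SLC1A5 shares 22.8% of its 31-base words with another gene on either strand, a share that includes words of this overlap.

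SLC7A1, the arginine and lysine carrier (chromosome 13, 29509410 to 29595688), was next. It gave 12735 counts with DMSO and 7845 with L1, and its log2 ratio was -0.49 (95% interval -0.53 to -0.45). Of the genes at this depth, 8.46% had a lower ratio, and no word of 31 bases in its transcripts occurred in another gene. The difference between SLC1A5 and SLC7A1 in log2 ratio was -0.16 (95% interval -0.21 to -0.10), a quantity that does not depend on how the libraries are scaled. SLC1A5 and SLC7A1 therefore had the lowest ratios of the members.

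The mRNAs of SLC3A2 and SLC7A5 had ratios above 0. SLC3A2, the heavy chain (chromosome 11, 62856102 to 62888875), gave 3486 counts with DMSO and 3574 with L1, and its log2 ratio was 0.25 (95% interval 0.18 to 0.32), the highest of the members. SLC7A5, the light chain with the highest FPKM (chromosome 16, 87830023 to 87869488), gave 12371 counts with DMSO and 12307 with L1, and its log2 ratio was 0.21 (95% interval 0.17 to 0.24). SLC7A6 (chromosome 16, 68264516 to 68301823) gave 1051 counts with DMSO and 998 with L1, and its log2 ratio was 0.14 (95% interval 0.01 to 0.26), or 0.11 (-0.02 to 0.23) with DESeq2 size factors. Raw counts were thus nearly equal for these 3 genes, and the ratios lie above 0 after scaling for the smaller L1 library.

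Of the light chains, SLC7A5 and SLC7A6 could not be told from SLC3A2 within counting error, and for SLC7A11 the interval of the difference narrowly excluded 0. SLC7A5 minus SLC3A2 in log2 ratio was -0.04 (95% interval -0.12 to 0.03), and SLC7A6 minus SLC3A2 was -0.11 (-0.25 to 0.03). SLC7A11 minus SLC3A2, a pair added after the values were seen, was -0.15 (-0.28 to -0.02). SLC7A11 was not compared with SLC7A6, and the intervals of their log2 ratios, -0.01 to 0.22 and 0.01 to 0.26, overlapped. The FPKM of SLC7A5 was 4.76 times that of SLC3A2 in DMSO and 4.62 times in L1. With SLC7A6, SLC7A7 and SLC7A11, further light chains of SLC3A2, the summed light chains were 5.29 times SLC3A2 in DMSO and 5.11 times in L1. The FPKM of SLC3A2 rests on a gene length of about 6350 bases, as the deposited values imply, while its merged exons span 5178 bases in GENCODE release 29.

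Reads of SLC7A6 and SLC7A5, as those of SLC1A5, may be shared with other genes. Exons of SLC7A6OS, on the opposite strand, overlap SLC7A6 over 3371 bases. Of the 31-base words of SLC7A6, 53.5% occur in another gene on either strand, a share that includes words of such overlaps. SLC7A6OS gave 1055 counts with DMSO and 926 with L1, and its log2 ratio was 0.02, and AC020978.9, also opposite, had 13 and 12. With both summed in, SLC7A6 had a log2 ratio of 0.08 (95% interval -0.01 to 0.17), which includes 0. SLC7A5 has the pseudogenes SLC7A5P1, with 16 counts in each library, and SLC7A5P2, with 4 in DMSO and 3 in L1, and 11.2% of its words are shared.

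The small neutral amino acid carriers differed less. SLC38A2 (chromosome 12, 46358189 to 46372867) gave 14930 counts with DMSO and 12060 with L1, and its log2 ratio was -0.09 (95% interval -0.13 to -0.06). SLC1A4 (chromosome 2, 64988477 to 65023865) gave 1565 counts with DMSO and 1269 with L1, and its log2 ratio was -0.09 (95% interval -0.20 to 0.02), which includes 0. SLC1A5 minus SLC1A4, the paralog of the same family, was -0.55 (95% interval -0.67 to -0.44), so the ASC-type carriers were unequal beyond counting error.

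SLC43A1 (chromosome 11, 57484534 to 57515786) gave 1335 counts with DMSO and 970 with L1, and its log2 ratio was -0.25 (95% interval -0.37 to -0.13). It carries leucine as SLC7A5 does, yet the ratios of these genes lay on opposite sides of 0. SLC6A9 (chromosome 1, 43991500 to 44031467) gave 1184 counts with DMSO and 1091 with L1, and its log2 ratio was 0.10 (95% interval -0.02 to 0.21). CCDC24, opposite SLC6A9 with 404 shared exonic bases, had 95 and 81 counts.

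SLC38A1 (chromosome 12, 46183063 to 46270017) was at 0 counts in both libraries, which by counting error alone allows up to 0.0921 CPM in DMSO and 0.111 in L1. Whether the gene was not expressed or its reads were not counted cannot be told from the tables. SLC38A2, the next protein-coding gene on the chromosome, was measured deeply, and the limit for SLC38A1 is 0.0201% of the SLC38A2 counts in DMSO. Of the 19838 protein-coding genes found in the count table and GENCODE, 24.5% were likewise at 0 in both libraries. No fold is given for SLC38A1.

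**Figure D2:**
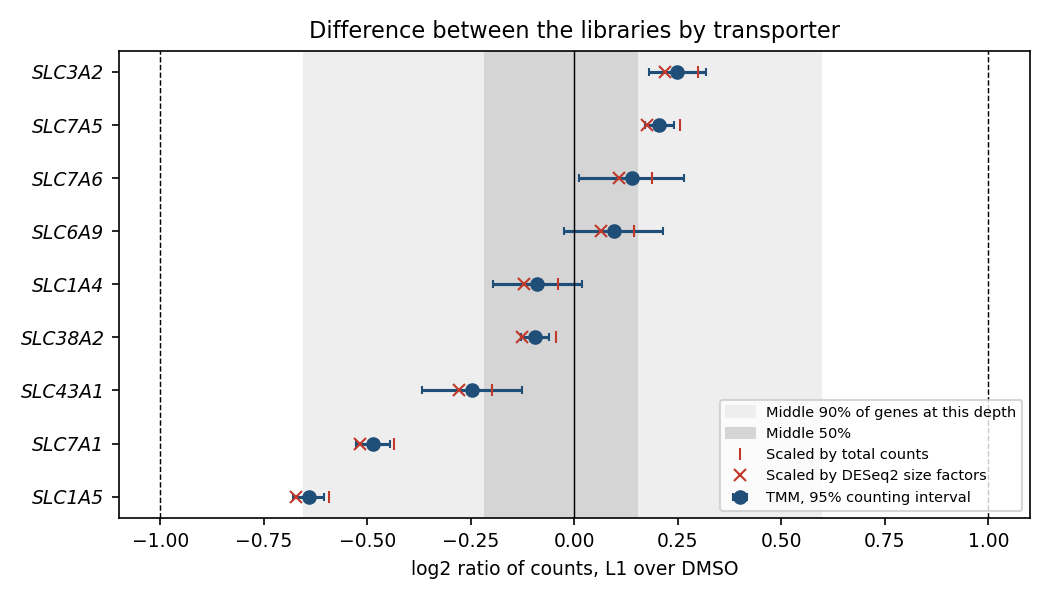
Log2 ratio of counts, L1 over DMSO, for each measured transporter with its 95% counting interval (blue), and the same ratio under total count and DESeq2 scaling (red). Light and dark grey bands hold the middle 90% and 50% of the 6479 genes with at least 1000 counts in the higher library. SLC1A5 at -0.64 and SLC7A1 at -0.49 lie lowest, SLC3A2 at 0.25 lies highest, and none reaches the dashed lines at 2-fold.

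The other plasma membrane amino acid transporters were given by a list of 29 genes. Only 8 had at least 10 counts in a library, and 21 did not. Of the 8, 7 had a ratio above 0, as 49.6% of all 18123 genes did, and the median log2 ratio was 0.33. SLC6A6 and SLC7A8 were at least 2-fold higher, as 7.12% of the 18123 genes were, and none was 2-fold lower. SLC6A6, the taurine transporter, had by far the largest difference, with 1189 counts under DMSO, 5831 under L1 and a log2 ratio of 2.51 (95% interval 2.42 to 2.60). Its FPKM was 4.53 in DMSO and 25.8 in L1, so that the latter lay above SLC3A2. SLC7A8, named only for this count, had 5 and 12 counts and an interval of -0.13 to 3.33, and it was kept only through its higher library.

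SLC38A5 and SLC6A19, with SLC6A6, had the highest FPKM of the list. SLC38A5 (SNAT5), a glutamine and glycine carrier, was at 16.4 FPKM in DMSO and 23.9 in L1, with 2099 and 2638 counts and a log2 ratio of 0.54 (95% interval 0.46 to 0.63). SLC38A2 minus SLC38A5 in log2 ratio was -0.64 (95% interval -0.73 to -0.55). SLC6A19, a neutral amino acid carrier best known from kidney and intestine, had 3220 counts in DMSO and 3032 in L1, an FPKM of 19.2 and 21.0 and a log2 ratio of 0.13 (0.05 to 0.20). SLC43A2 (LAT4), the paralog of SLC43A1, had 205 and 294 counts and a log2 ratio of 0.73 (0.47 to 1.00). SLC43A1 minus SLC43A2 was -0.98 (95% interval -1.26 to -0.70), so the paralogs went in opposite directions. SLC7A11 (xCT), the cystine carrier that also pairs with SLC3A2, gave 1318 counts with DMSO and 1221 with L1, and its log2 ratio was 0.10 (-0.01 to 0.22).

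Summed by substrate, in groups chosen after the values were seen, the glutamine carriers SLC1A5, SLC38A2 and SLC38A5 were at 235 FPKM in DMSO and 185 in L1. The carriers of large neutral amino acids, SLC7A5, SLC43A1 and SLC43A2, were at 94.2 and 105. The carriers of cationic amino acids, SLC7A1, SLC7A6 and SLC7A7, were at 57.0 and 42.5. Each of these differences is mainly that of a single gene, -52.4 FPKM for SLC1A5, 12.5 for SLC7A5 and -14.9 for SLC7A1, while SLC38A5, SLC43A1 and SLC7A6 differed the other way within their sums. The sums are partial. SLC6A19, a neutral amino acid carrier at 19.2 FPKM in DMSO and 21.0 in L1, is in none of them. SLC7A6, which also carries neutral amino acids, is counted only as cationic.

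**Figure D3:**
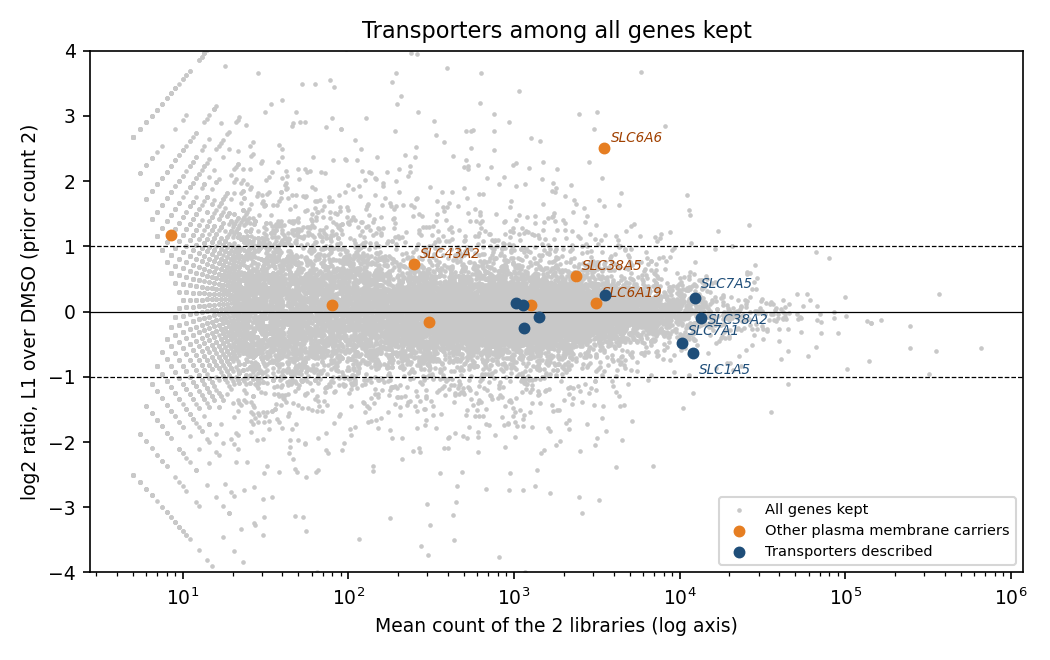
Log2 ratio, L1 over DMSO with a prior count of 2, against the mean count of both libraries for the 18123 genes kept (grey; 81 genes beyond a log2 ratio of 4 in size are outside the axis), the measured transporters (blue) and the other plasma membrane carriers (orange). The blue points stay within the dashed 2-fold lines, while SLC6A6 lies at 2.50.

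A further list held 23 transporters, most but not all of them of mitochondria and lysosomes. It also held SLC38 genes such as SLC38A6 and SLC38A10. Of the 23, 18 had at least 10 counts, 10 with a ratio above 0 and 8 below, and the median log2 ratio was 0.03. None was past 2-fold, where 12.0% of all genes were. The 3 genes farthest from 0 were lower in L1, but SFXN3, a mitochondrial serine carrier, followed with 706 and 990 counts and a ratio of 0.70 (95% interval 0.56 to 0.84). With total counts SFXN3 was at 0.75 and passed SLC25A12 at -0.66 and SLC66A1 at -0.71. With DESeq2 size factors SLC36A1 was at -1.02, past 2-fold. SLC36A1, a lysosomal proton-coupled carrier, gave 302 counts with DMSO and 131 with L1, and its log2 ratio was -0.99 (95% interval -1.30 to -0.69). SLC66A1, a lysosomal carrier of cationic amino acids, had 469 and 239 counts and a ratio of -0.76 (-0.99 to -0.53). SLC25A12, a mitochondrial aspartate-glutamate carrier, had 1257 and 665 counts and a ratio of -0.71 (-0.84 to -0.57).

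The list for amino acid sensing had 54 genes and covered the GCN2 and ATF4 arm and the amino acid input to mTORC1. It also held genes that do not themselves sense amino acids, such as EIF2AK1, EIF2AK2, EIF2AK3, MYC and DDIT4. All 54 had at least 10 counts, 24 had a ratio above 0 and 30 below, and the median log2 ratio was -0.07. Of these, 3 were at least 2-fold higher (DDIT3, DDIT4 and MYC), where 7.12% of all genes were. PPP1R15B and CASTOR1 were at least 2-fold lower, where 4.83% of all genes were. CASTOR1, with 22 and 2 counts, was kept only through its higher library. ATF4 mRNA gave 4829 counts with DMSO and 3820 with L1, and its log2 ratio was -0.13 (95% interval -0.19 to -0.06). ASNS, the asparagine synthetase and an ATF4 target, had 1676 and 983 counts and a ratio of -0.56 (-0.67 to -0.44). The interval lay above 0 for 18 of the 54 genes, below 0 for 22 and included 0 for 14. Over all 18123 genes, it lay above 0 for 26.8% and below 0 for 28.6%. Among the 14 were TRIB3 at 0.03 (-0.10 to 0.17), SESN2 at 0.09 (-0.05 to 0.23) and CHAC1 at -0.14 (-0.51 to 0.23). The 22 also held CEBPB at -0.32 (-0.57 to -0.07), CEBPG at -0.25 (-0.35 to -0.16) and ATF5 at -0.17 (-0.32 to -0.02). DDIT3 (CHOP) was higher, with 106 and 284 counts and a ratio of 1.63 (1.31 to 1.97). Of the 5 transporters with a TGATGNAA match, SLC38A1 had no ratio. SLC1A5 at -0.64 and SLC7A1 at -0.49 were below 0, and SLC3A2 at 0.25 was above. SLC1A4 at -0.09 had an interval that included 0.

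MYC gave 724 counts with DMSO and 1527 with L1, and its log2 ratio was 1.29 (95% interval 1.16 to 1.42). Of the 3 members with a CACGTG match, SLC7A5 was above 0 and SLC43A1 and SLC1A5 were below. DDIT4, an inhibitor of mTORC1 signalling, had 178 and 355 counts and a ratio of 1.21 (0.95 to 1.48). PPP1R15B, a subunit of the phosphatase that acts on eIF2α, was lower, with 4520 and 1702 counts and a ratio of -1.20 (-1.28 to -1.12). PPP1R15A, the alternative subunit, was higher, with 3952 and 5403 counts and a ratio of 0.66 (0.60 to 0.72). The other gene 2-fold lower, CASTOR1, was named only for this count, had 22 and 2 counts and was kept only through its higher library.

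**Figure D4:**
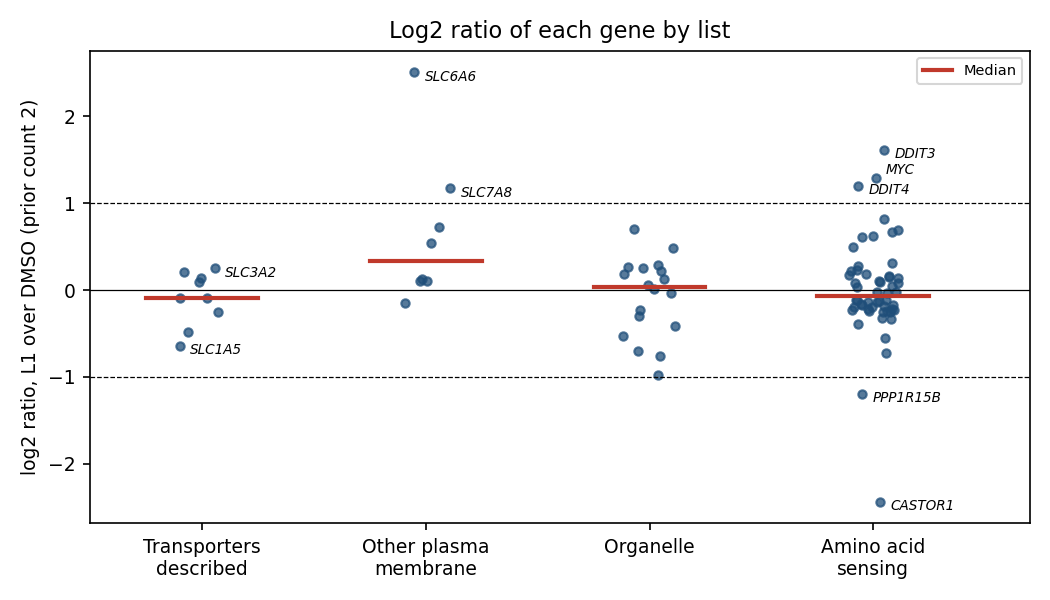
Log2 ratio, L1 over DMSO with a prior count of 2, of each gene with at least 10 counts in a library, by list, with the list median as a red line. The 9 transporters lie between -0.64 and 0.25 around a median of -0.09. The lowest of the sensing genes is CASTOR1, with 22 and 2 counts.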

How the data were processed

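HEL cells were treated with 0.5% DMSO or with L1 (1 µM) for 24 h, and mRNA bound to capture beads gave 1 paired-end library for each treatment. The submitters' processing notes name fastp, HISAT2 2.1.0, StringTie and hg38. The authors deposited raw read counts per Ensembl gene, without normalization, and FPKM values for 13924 genes. The FPKM values come from the same reads and carry the same library ratio as TMM, so they are no independent measurement. The counting program, annotation release and strand setting are not given in the sources used here, so reads of genes on opposite strands may not be separated.

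Library scaling used the TMM method of edgeR 4.0.16 (R 4.3.3), with DESeq2 1.42.0 size factors as an alternative. Ratios, intervals and plots were made in Python 3.11.15 (numpy 2.4.6, pandas 2.3.3, scipy 1.17.1 and matplotlib 3.10.9). The log2 ratio of a single gene has no prior count and an exact 95% Clopper-Pearson interval. Comparisons over all genes used a prior count of 2, and genes with at least 10 counts in a library were kept. Differences between the ratios of 2 genes (12 pairs, 1 of them added after the data were seen) have a large-sample interval on the log scale. With 1 library per condition no test was run. Coordinates and exon overlaps are those of GENCODE release 29 (GRCh38), which holds 58254 of the 61806 identifiers. The scripts were tested on simulated counts.

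The members and lists were chosen with earlier results of these data known. Named are all members, list genes with at least 100 counts that were past 2-fold or, where fewer than 3 were, the 3 farthest from 0, the 3 other plasma membrane carriers of highest FPKM, ATF4, ASNS, DDIT3, MYC and SLC7A11, and genes or pseudogenes that overlap or copy a member. Outside this rule, and chosen after the values were seen, PPP1R15A is given beside PPP1R15B, and TRIB3, SESN2, CHAC1, CEBPB, CEBPG and ATF5 beside ASNS. Of the pseudogene list, SLC6A9P1 and SLC38A1P1 had no match. Protein sequences were not used here, and the result of 1 gene under this rule is not reported here. The alternatives were other scalings, deposited FPKM, other prior counts, filters and thresholds, and sums over overlapping genes.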

Additional observations from a re-analysis of the deposited data

How the results depend on the processing

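No paired analysis was possible because DMSO and L1 are represented by a single library apiece. Of 59 values of the 9 measured transporters under the alternatives, none changed sign, 51 stayed within the counting interval and 8 moved out of it, among them 4 with total counts and 3 with upper quartile scaling. Among the 51, the 9 with deposited FPKM ratios and the 9 with a prior count of 2 could hardly move. The FPKM carry the same library ratio as TMM, and a prior of 2 is small beside these counts. With counts overlapping it on the opposite strand summed in, SLC1A5 was at -0.58 and no longer 1.5-fold lower. The interval of SLC7A6 included 0 with DESeq2 size factors and with such a sum, and that of SLC6A9 excluded it with total counts and upper quartile scaling. The median of the transporters stayed between -0.12 and -0.04. The medians of the other lists stayed above 0 for plasma membrane and organelle carriers and below 0 for sensing genes under the scalings and a minimum of 100 counts. Over all genes, 1290 were at least 2-fold higher and 876 lower. These numbers were 3544 and 1811 with no filter, 387 and 361 with at least 100 counts in a library, 132 and 135 with at least 1000 (chosen after seeing the data), 2506 and 2065 at 1.5-fold, 567 and 345 at 3-fold, 547 and 350 with the whole interval past 2-fold, and 199 and 153 on log2(FPKM + 1). The filters and thresholds change how many genes can pass by construction, and the cause of the smaller numbers on FPKM was not tested. Depth limits the genes with few counts, and the missing replicates limit every comparison.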
